A study of Mus musculus with 10 samples.

Results

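The killer lectin-like receptor (Klr) genes encode surface receptors of natural killer (NK) cells and of some T cells, and most of them lie side by side in the NK gene complex of mouse chromosome 6. Their products are C-type lectin-like proteins that read the state of other cells, mainly by binding major histocompatibility complex (MHC) class I molecules or related ligands. Inhibitory members carry a tyrosine motif that recruits phosphatases, whereas activating members signal through adaptors, which for many of them are DAP12 (Tyrobp) or DAP10 (Hcst). The genes described here were all protein-coding rows of the expression table with a name of Klr followed by a letter from a to k. This gave 26 of the 54532 genes in the table, of which 22046 are protein-coding. They comprised 11 Klra genes (the Ly49 family), 5 Klrb, 3 Klrc, 2 Klrg and 2 Klri genes, and Klrd1, Klre1 and Klrk1.

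The expression table came from spleens of 5 DUSP6 KO and 5 WT mice, with 1 library per mouse. The KO mice carried the Dusp6tm1Jmol allele, a deletion of the ERK phosphatase DUSP6 in every cell (the sample labels call the genotype a knockdown), and WT mice were C57BL/6J, all 8 to 12 weeks old. Both groups received 100 µL of arthritogenic KRN x NOD serum intraperitoneally on days 0 and 2 (KRN serum-induced arthritis, KSIA), and spleens were taken on day 9. Both groups thus had the serum, and the comparison is between the genotypes. The paper lists the KO and WT mice as separate strains bought from the same supplier and does not mention littermates. Any other difference between these strains was not tested and cannot be told apart from the deletion.

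Reads assigned to genes, as recovered from the expression values, numbered 14990474 to 19822673 per library. Dusp6 was at 0.308 to 0.624 FPKM (fragments per kilobase of gene, scaled to the depth of the library) in the KO and at 16.6 to 24.0 FPKM in the WT libraries, which on the log2 scale is -5.19 ± 0.16 (SE; limma adjusted p = 1.33e-07). The splenic lists of B cell, T cell, red pulp macrophage and erythroid markers were detected in all their members, and none of the 26 NK cell markers in the table was at 0 in every library. Replicate WT 67 had the highest WT value for 18 of the 26 genes, and KO 73 and KO 01 had the lowest KO value for 11 and 8 of them. Results are therefore also given without WT 67 and KO 73, a choice made after seeing the data. Neutrophil markers were lower in the KO group at an unadjusted p under 0.05 for 7 of 12 genes, with summed levels of 592 to 2004 FPKM against 1151 to 5047, and none was at 0 in any library. Their part in the results was not tested.

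Most receptor genes had lower mean levels in DUSP6 KO spleens, with Klrc3 and several Klra genes furthest from WT, but no single gene passed the test across all genes. By limma on log2(FPKM + 0.1), an adjusted p up to 0.05 was reached by 0 of the 26 genes and by 15 of all 21296 tested (0.0704%). At an unadjusted p under 0.05, 7 of the 26 (26.9%) were lower in KO and 0 were higher, where 3.03% of all genes tested were lower and 2.62% higher. These were Klrc3, Klra8, Klra4, Klra10, Klra1, Klra17 and Klrc2. A log2 fold change below 0 was found for 21 of the 26, against 51% of all genes, and the median was -0.37, against -0.0046 over all genes. Such a share was not particular to the receptor genes. Also below 0 were 20 of 25 NK cell markers, 16 of 19 adaptor and signalling genes and 13 of 16 ligand genes tested. So were 9 of 9 B cell and 12 of 12 neutrophil markers, but only 4 of 14 T cell and 1 of 9 erythroid markers. Without WT 67 and KO 73, 15 of the 26 were below 0 and the median was -0.16. With the mean level of NK cell markers as a covariate, again 15 were below 0, with a median of -0.17. Leaving out WT 67 alone gave a median of -0.24. Limma voom on the reads recovered from the FPKM values also called 0 of the 26 and placed the same 7 genes under an unadjusted p of 0.05. The number at that threshold was 12 without WT 77 and 4 without WT 83, and 5 without WT 67 and KO 73 together. In whole spleen, fewer cells of a type and less RNA per cell cannot be told apart.

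**Figure D1:**
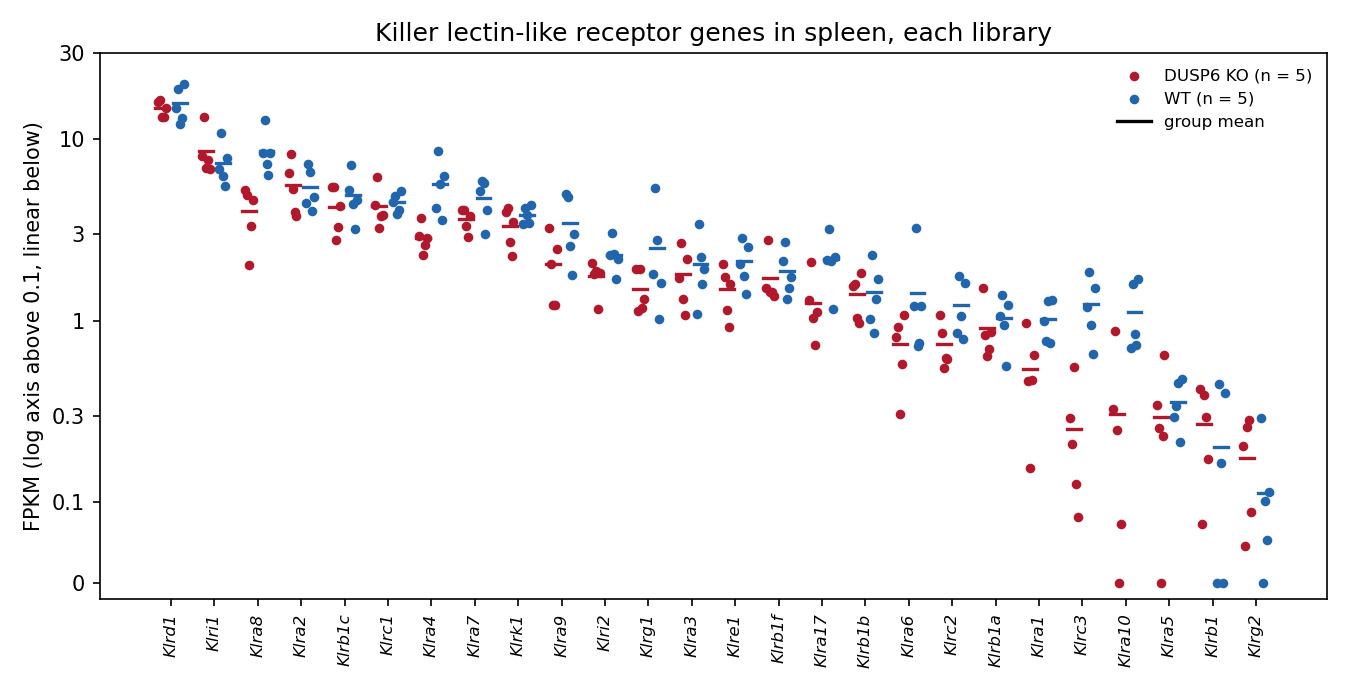
FPKM of the 26 genes (y axis, log scale above 0.1) in each of 5 DUSP6 KO (red) and 5 WT (blue) libraries, ordered by mean level, with lines at the group means. The 2 groups overlap for 24 genes and do not for Klra8 and Klrc3. Of all genes tested, 0.563% had every KO value below every WT value.

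By level, Klrd1 stood first in both groups, at 14.9 ± 1.55 FPKM in KO and 15.9 ± 3.61 in WT (SD, n = 5). Klrd1 encodes CD94, the shared partner chain of the NKG2 receptors, and its values were 16.2, 16.6, 13.3, 13.3 and 14.9 FPKM in KO 26, 21, 73, 01 and 03. In WT 65, 67, 73, 77 and 83 they were 14.8, 19.1, 12.2, 13.2 and 20.3 FPKM. The KO values all lay inside the WT range, and the log2 fold change was -0.08 (95% confidence interval -0.40 to 0.25). Behind Klrd1 the order of the group means differed between genotypes. Klra8 was second of 26 in WT and sixth (rank 6) in KO, and Klra4 was at rank 4 in WT and rank 9 in KO. Neighbouring genes in this order overlapped in their values, so the ranks describe the means alone. Klra5, Klrb1 and Klrg2 had the lowest means in WT, and in KO the mean of Klrc3 was lower still than those of Klra5 and Klrb1. Klra5, Klrb1 and Klrg2 each had group means under 0.4 FPKM and 0 reads in at least 1 library.

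Of the Klra genes, only Klra8, Klra4, Klra7 and Klra2 had more than 30 reads in every library, a limit that was not fixed beforehand. Among these few genes, the activating receptors Klra8 and Klra4 had the strongest differences. Klra8 encodes Ly49H, which recognises a protein of mouse cytomegalovirus, and Klra4 encodes Ly49D, and both pair with DAP12. Klra8 was at 5.23, 4.93, 2.03, 3.33 and 4.66 FPKM in KO 26, 21, 73, 01 and 03 and at 8.44, 12.8, 7.28, 6.33 and 8.43 FPKM in WT 65, 67, 73, 77 and 83. Every KO library lay below every WT library, which was so for 0.563% of all genes tested. Such a separation gives p = 0.0079 in a two-sided exact permutation test, the smallest value that 5 against 5 libraries allow. The group means were 4.04 ± 1.34 and 8.65 ± 2.46 FPKM, and the log2 fold change was -1.12 ± 0.27 (SE; limma adjusted p = 0.368). Klra4 was at 2.93, 3.68, 2.30, 2.63 and 2.86 FPKM in the KO libraries and at 4.18, 8.67, 5.68, 3.58 and 6.28 FPKM in the WT libraries, in the same order. Its groups overlapped only in KO 21, which was above WT 77. The group means of Klra4 were 2.88 ± 0.508 and 5.68 ± 2.00 FPKM, and KO differed from WT by -0.90 ± 0.22 on the log2 scale (limma adjusted p = 0.409). Without WT 67 and KO 73, the log2 fold changes were -0.75 for Klra8 and -0.66 for Klra4 (adjusted p = 0.370 and 0.566).

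Klra8 lies at chr6:130115226-130129898 and Klra4 at chr6:130043731-130067271, both on the minus strand of GRCm38, with Klra11-ps between them. Their promoters had the highest percent identity among the 55 pairs of Klra promoters. Bases without a partner counted as different, so an offset between the starts of a pair lowered its identity. Both promoters are shown here beside the pair with the next highest value, the inhibitory Klra9 and Klra3, to let the activating pair be compared with an inhibitory pair. Each line gives the 250 bases before the RefSeq start on GRCm38.p6, read 5′ to 3′ on the minus strand, at chr6:130129899-130130148 (Klra8), chr6:130067272-130067521 (Klra4), chr6:130193113-130193362 (Klra9) and chr6:130337627-130337876 (Klra3). Capitals mark bases that differ from the other gene of the pair, or have no partner there, in a global alignment.
Klra8: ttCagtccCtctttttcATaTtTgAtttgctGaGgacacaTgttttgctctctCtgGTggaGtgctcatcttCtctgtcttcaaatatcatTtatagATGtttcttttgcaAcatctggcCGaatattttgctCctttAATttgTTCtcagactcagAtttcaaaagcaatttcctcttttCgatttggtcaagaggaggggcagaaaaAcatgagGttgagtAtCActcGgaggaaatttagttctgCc
Klra4: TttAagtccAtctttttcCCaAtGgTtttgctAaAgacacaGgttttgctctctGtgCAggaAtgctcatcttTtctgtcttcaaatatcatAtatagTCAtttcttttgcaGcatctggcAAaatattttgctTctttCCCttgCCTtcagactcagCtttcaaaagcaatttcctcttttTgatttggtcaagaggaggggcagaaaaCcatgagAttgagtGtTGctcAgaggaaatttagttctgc
Klra9: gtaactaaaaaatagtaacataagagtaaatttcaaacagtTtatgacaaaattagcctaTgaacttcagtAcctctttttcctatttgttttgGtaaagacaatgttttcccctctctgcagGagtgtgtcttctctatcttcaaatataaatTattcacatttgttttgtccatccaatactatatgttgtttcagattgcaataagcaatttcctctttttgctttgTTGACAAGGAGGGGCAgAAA
Klra3: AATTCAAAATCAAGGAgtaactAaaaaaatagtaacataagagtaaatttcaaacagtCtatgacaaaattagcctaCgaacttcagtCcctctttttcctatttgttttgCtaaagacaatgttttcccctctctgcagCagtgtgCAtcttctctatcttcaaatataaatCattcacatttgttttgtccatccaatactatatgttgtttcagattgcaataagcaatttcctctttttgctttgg
Klra8 and Klra4 were 84.5% identical over this stretch and Klra9 and Klra3 were 83.6%, where the median over all pairs was 50.7%. Klra8 and Klra4 each have 38 capitals, spread along the line. Klra9 and Klra3 each have 25, most of them in runs at the end or the start, where the windows are offset. Apart from these runs, Klra9 and Klra3 were thus more alike than Klra8 and Klra4. Klra9 (Ly49I) was at 2.05 ± 0.872 FPKM in KO and 3.44 ± 1.42 in WT, which on the log2 scale is -0.72 (limma adjusted p = 0.921). Klra3 (Ly49C) was at 1.80 ± 0.654 and 2.06 ± 0.877 FPKM, a log2 fold change of -0.16 (adjusted p = 0.993). Promoters in the RefSeq table matched 23 of the 26 genes, and Klrd1, Klrg1 and Klri2 were not matched. The core TGTGGT of the Runx factors, searched on both strands of 300 bases from 250 before to 50 after the start, was in 8 of the 23 (Klrb1a, Klrb1c, Klrc1, Klrc2, Klrc3, Klre1, Klrk1 and Klra1), against 16.8% of 32817 promoters. The T-box core TCACAC was in 3 of the 23 (Klre1, Klra1 and Klrg2), against 14.5%. The Ets core AGGAAG was in 6 of the 23, against 35.4%. None of these words was in the windows of Klra8, Klra4, Klra9 or Klra3.

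Klra10, Klra1 and Klra17, inhibitory members of the Klra group, were the other Klra genes with an unadjusted p under 0.05. Klra10 (Ly49J) was at 0.326, 0.875, 0.249, 0 and 0.0732 FPKM in KO 26, 21, 73, 01 and 03 and at 0.711, 1.59, 0.845, 0.731 and 1.70 FPKM in the WT libraries. These values rest on 0 to 14 reads per KO and 10 to 25 reads per WT library, and KO 21 alone reached the WT range. The log2 fold change was -1.92 ± 0.56 (limma adjusted p = 0.556). Klra1 (Ly49A) was at 0.972, 0.467, 0.155, 0.471 and 0.649 FPKM in the KO libraries and 0.995, 0.772, 1.28, 0.750 and 1.30 FPKM in the WT libraries. Only KO 26 was above any WT library, and the log2 fold change was -0.91 ± 0.35 (limma adjusted p = 0.789). Klra17 encodes Ly49Q, which is known from plasmacytoid dendritic cells and myeloid cells. It was at 1.30, 2.11, 1.03, 0.736 and 1.11 FPKM in KO and 2.16, 3.21, 2.14, 1.16 and 2.25 FPKM in WT, with KO 26 and KO 21 above the lowest WT library. Its log2 fold change was -0.76 ± 0.30 (limma adjusted p = 0.789). The unadjusted p was over 0.05 for Klra1 without WT 73 or WT 83, and for Klra17 without KO 01, KO 03, KO 73, WT 67 or WT 83.

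Altogether 5 of the 11 Klra genes were lower at an unadjusted p under 0.05 and 10 had a log2 fold change below 0, with a median of -0.74. For the 15 other receptor genes these numbers were 2 and 11, with a median of -0.18. The Klra median was -0.42 without WT 67 and KO 73, and -0.32 with the mean level of the NK cell markers as a covariate. Klra7 (Ly49G) was at 3.63 ± 0.519 FPKM in KO and 4.79 ± 1.24 in WT, and Klra6 (Ly49F) at 0.741 ± 0.304 and 1.43 ± 1.04 FPKM. Neither had an unadjusted p under 0.05 (adjusted p = 0.944 for both). Klra5 (Ly49E) had 0 to 15 reads per library and a log2 fold change of -0.43 (interval -1.49 to 0.63). Klra2 (Ly49B), which lies apart from the other Klra genes, was at 6.55, 8.27, 5.36, 3.99 and 3.78 FPKM in KO and 4.47, 7.31, 6.63, 4.03 and 4.82 FPKM in WT. Its groups overlapped throughout, and the log2 fold change was 0.01 (interval -0.52 to 0.54).

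The Klra genes are close copies of each other, and reads may be assigned to the wrong copy. Of the 100-base windows of the Klra8 transcript, 14.4% also occurred in another Klr gene or pseudogene, mostly Klra14-ps (13.7%). No window of Klra4, Klra1 or Klra17 occurred in another of these, and for Klra10 the share was 5.25%. Only exact matches among transcripts of Klr genes and pseudogenes were searched. Windows that are nearly identical, or shared with other genes, were thus not counted. The pseudogenes Klra13-ps and Klra14-ps were themselves lower in KO, with log2 fold changes of -1.05 ± 0.23 and -1.04 ± 0.27 (limma adjusted p = 0.331 and 0.462). Klra13-ps was at 3.21 to 6.77 FPKM in KO and 7.63 to 14.9 FPKM in WT, with no overlap. The remaining pseudogene, Klra11-ps, had at most 3 reads in a library and was not tested. With all Klra genes and pseudogenes summed to 1 value per library, the log2 fold change was -0.75 ± 0.21 (limma adjusted p = 0.527).

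The Klrc genes encode NKG2 chains, which pair with CD94 (Klrd1) and bind the MHC class Ib molecule Qa-1 (H2-T23). Klrc1 encodes the inhibitory NKG2A, Klrc2 the activating NKG2C, and Klrc3 (NKG2E) was counted here with the activating genes. Klrc3 was at 0.291, 0.210, 0.556, 0.125 and 0.0819 FPKM in KO 26, 21, 73, 01 and 03 and at 1.19, 1.85, 0.945, 0.654 and 1.52 FPKM in WT 65, 67, 73, 77 and 83. All KO values were below all WT values, which was so for 0.563% of all genes tested. That separation fixes the unadjusted p of the two-sided exact permutation test at 0.0079. They rest on 1 to 6 and 8 to 26 reads per library, so counting error is large. The log2 fold change of Klrc3 was -1.99 ± 0.38 (limma adjusted p = 0.243). It was the most negative of the 26 genes on this scale, but not under every alternative. With a pseudocount of 0.01, Klra10 was further from 0 (-2.85 against -2.44 for Klrc3), and with a pseudocount of 1, Klra8 was (-0.95 against -0.82). Klra10 was also the most negative with voom on recovered reads (-2.49 against -2.30), with array weights, without KO 21 and without WT 65. Klrc2 was at 1.08, 0.858, 0.552, 0.619 and 0.612 FPKM in KO and 0.855, 1.77, 1.06, 0.797 and 1.61 FPKM in WT. Its groups overlapped in KO 26 and KO 21, and the log2 fold change was -0.62 ± 0.27 (limma adjusted p = 0.853), with a p over 0.05 when any of KO 01, KO 03, KO 73, WT 67, WT 73 or WT 83 was left out. Of the Klrc3 transcript windows, 20.9% also occurred in Klrc2.

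The inhibitory Klrc1 was at 4.29 ± 1.14 FPKM in KO and 4.50 ± 0.539 in WT, with a log2 fold change of -0.10 (interval -0.46 to 0.27). The summed level of Klrc2 and Klrc3 over that of Klrc1 was 0.313, 0.172, 0.343, 0.196 and 0.181 in KO 26, 21, 73, 01 and 03 and 0.451, 0.746, 0.519, 0.354 and 0.605 in WT 65, 67, 73, 77 and 83. Every KO ratio was below every WT ratio, although KO 73 and WT 77 were close. This ratio and the ones that follow were chosen after the values were seen and carry no test. With Klrc2 alone over Klrc1, the KO ratios of 0.139 to 0.247 overlapped the WT ratios of 0.188 to 0.365. Klrk1 encodes the activating receptor NKG2D, which binds stress-induced ligands, and was at 3.33 ± 0.810 FPKM in KO and 3.85 ± 0.427 in WT (log2 fold change -0.23, interval -0.61 to 0.14).

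**Figure D2:**
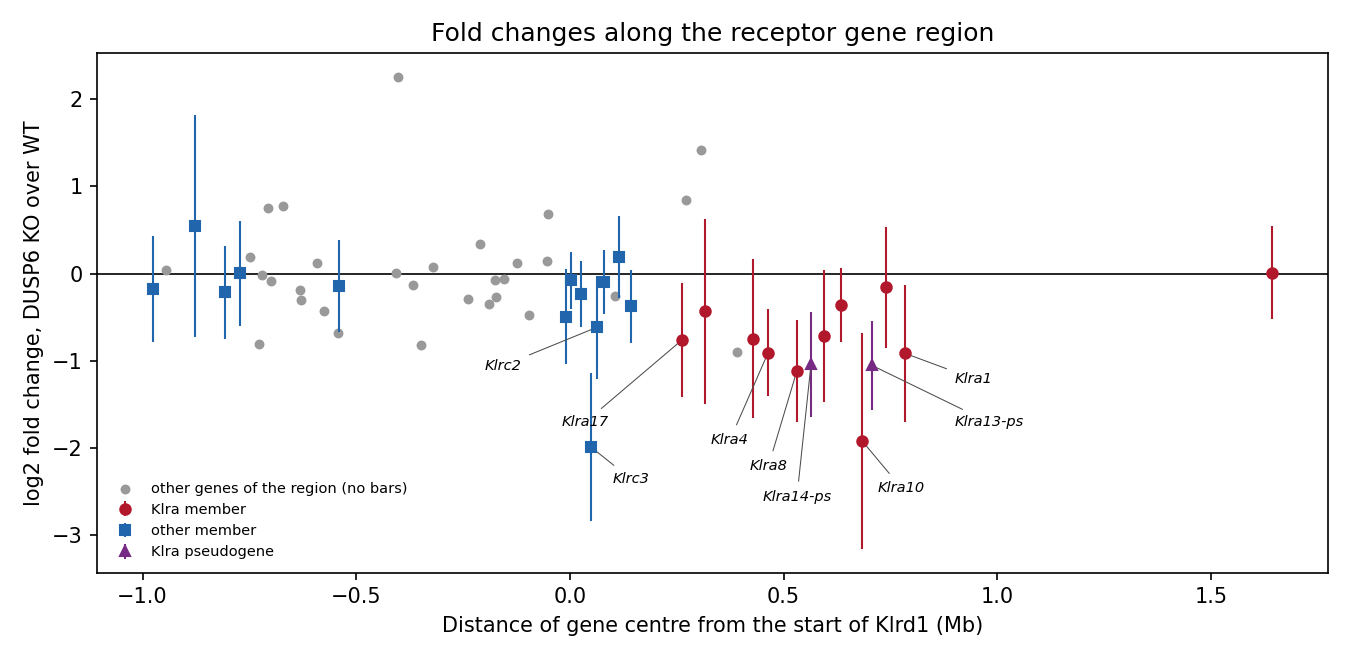
Log2 fold change (y axis, DUSP6 KO over WT) of the genes from Klrb1a to Klra2 against their distance in Mb from the start of Klrd1 (x axis), with bars for the 95% confidence interval of receptor genes and pseudogenes. Genes with an unadjusted p under 0.05 among these are named, and most lie in the Klra run, while the other genes of the region scatter around 0 with a median of -0.06.

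Klri1 and Klri2 encode an inhibitory and an activating receptor that both pair with the product of Klre1. Klri1 had the second highest mean of the 26 genes, with 8.06, 13.3, 7.0, 7.71 and 6.91 FPKM in KO 26, 21, 73, 01 and 03 and 6.84, 10.8, 6.30, 5.53 and 7.86 FPKM in WT. Replicate KO 21 stood above the rest and the groups overlapped, with a log2 fold change of 0.19 (interval -0.28 to 0.67). Klri2 was at 1.76 ± 0.346 FPKM in KO and 2.31 ± 0.482 in WT (log2 fold change -0.38, interval -0.79 to 0.04). The ratio of Klri2 to Klri1 was 0.137 to 0.269 in KO and 0.278 to 0.369 in WT, without overlap but with a narrow gap. Klre1 was at 1.49 ± 0.454 and 2.13 ± 0.582 FPKM, with a log2 fold change of -0.49 (interval -1.04 to 0.05).

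None of the 5 Klrb genes, which encode NKR-P1 receptors for Clec2 proteins, had an unadjusted p under 0.05. Klrb1c, whose activating product is the NK cell antigen used to identify these cells in C57BL/6 mice, was at 5.48, 5.47, 2.79, 3.29 and 4.30 FPKM in KO and 5.29, 7.22, 4.42, 3.21 and 4.64 FPKM in WT. The groups overlapped, and the log2 fold change was -0.21 (interval -0.75 to 0.32). The inhibitory Klrb1b was at 1.40 ± 0.377 and 1.44 ± 0.579 FPKM. Klrb1a was at 0.911 ± 0.349 and 1.04 ± 0.310 FPKM, and Klrb1f at 1.71 ± 0.607 and 1.88 ± 0.556 FPKM. Klrb1 had at most 12 reads in a library. Of the Klrg genes, which lie outside the gene complex, Klrg1 encodes an inhibitory receptor for cadherins that marks mature NK cells and effector T cells. It was at 1.13 to 1.93 FPKM in KO and 1.02 to 5.41 FPKM in WT, where the highest value was that of WT 67. Klrg2 had at most 21 reads in a library.

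Grouped by signalling role, all 9 activating genes had a log2 fold change below 0 and 4 were lower at an unadjusted p under 0.05, with a median of -0.38. Of the 14 inhibitory genes, 10 were below 0 and 3 were lower at that threshold, with a median of -0.39. Without WT 67 and KO 73, or with the NK marker covariate, 6 of the 9 activating and 8 of the 14 inhibitory genes were below 0, and the activating Klrb1a, Klrb1c and Klrb1f were then above 0. The summed FPKM of activating over inhibitory genes was 0.673, 0.563, 0.561, 0.619 and 0.672 in KO 26, 21, 73, 01 and 03 and 0.816, 0.801, 0.759, 0.838 and 0.853 in WT 65, 67, 73, 77 and 83. No KO library reached the lowest WT ratio. Among Klra genes alone, Klra8 and Klra4 together over the 9 inhibitory genes gave 0.333 to 0.533 in KO and 0.573 to 0.709 in WT, again without overlap. Without any Klra gene, the ratios of 0.688 to 0.974 in KO and 0.930 to 1.14 in WT overlapped.

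The sum over all 26 genes was 68.7 ± 13.9 FPKM in KO and 87.0 ± 21.3 in WT, and its ranges of 55.2 to 87.1 and 62.4 to 119.9 FPKM overlapped. The Klra genes made up 35.2%, 34.8%, 30.8%, 31.1% and 35.0% of this sum in KO 26, 21, 73, 01 and 03. In WT 65, 67, 73, 77 and 83 the share was 41.5%, 43.4%, 45.4%, 38.3% and 38.3%. Every KO library was below every WT library. This share was not fixed beforehand, restates the lower Klra levels given above and carries no test. The 15 other genes summed to 45.5 ± 8.04 FPKM in KO and 50.8 ± 11.8 in WT.

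**Figure D3:**
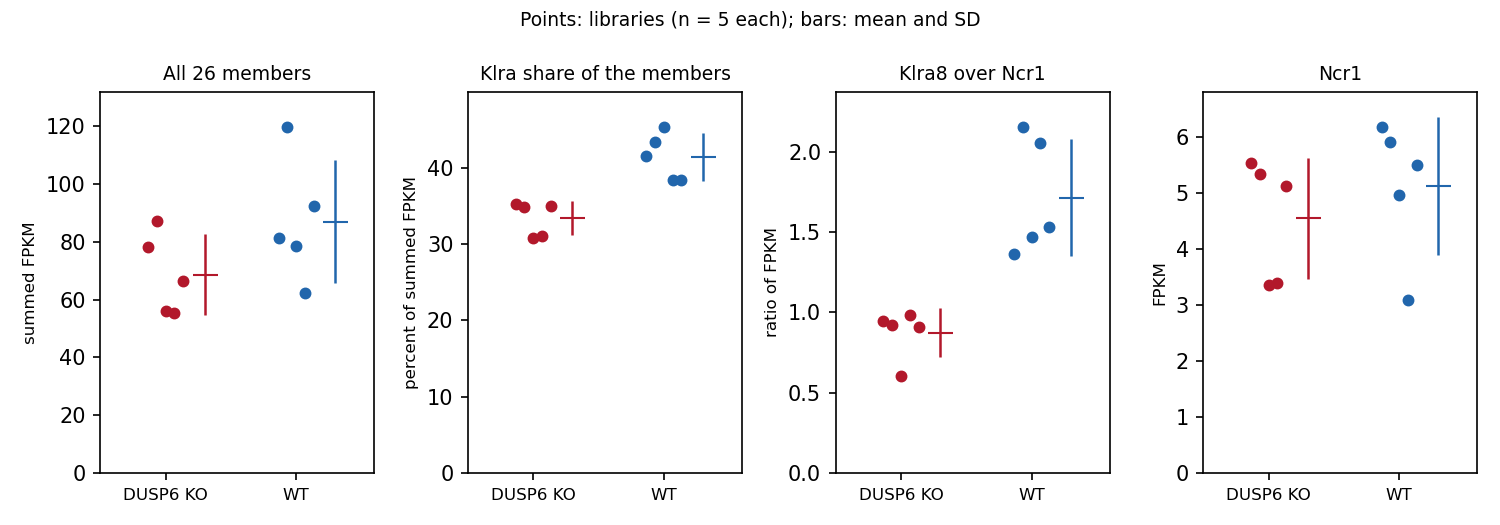
From left to right, the summed FPKM of the 26 genes, the percentage of it from Klra genes, the ratio of Klra8 to Ncr1, and the FPKM of Ncr1, in each of 5 DUSP6 KO and 5 WT libraries with mean and SD. The groups overlap in the first and last panels and are separate in the middle panels.

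Of 25 tested markers of NK cells outside the Klr family, 1 was lower at an unadjusted p under 0.05, and the median log2 fold change was -0.16. The summed level of the NK markers was 203 to 338 FPKM in KO and 226 to 396 in WT. Whether these markers come from NK cells alone in whole spleen was not tested, so their level is not a measure of NK cell number. Ncr1, the activating receptor NKp46 that is almost restricted to NK cells, was at 4.55 ± 1.08 FPKM in KO and 5.13 ± 1.23 in WT (log2 fold change -0.16 ± 0.22, limma adjusted p = 0.993). The ratio of Klra8 to Ncr1 was 0.946, 0.923, 0.602, 0.983 and 0.908 in KO 26, 21, 73, 01 and 03 and 1.36, 2.16, 1.47, 2.05 and 1.53 in the WT libraries, without overlap. For Klra4 this ratio was 0.529 to 0.777 in KO and 0.675 to 1.46 in WT, with overlap. With the mean log2 level of the NK markers as a covariate, the log2 fold change of Klra8 was -0.82 (limma adjusted p = 0.176), that of Klra4 -0.71 and that of Klrc3 -1.87, while 0 of the 26 genes were called and 5 had an unadjusted p under 0.05. The marker with a p under 0.05 was Cd244a, which encodes the receptor 2B4, at 4.15 ± 0.709 FPKM in KO and 5.40 ± 0.785 in WT (log2 fold change -0.38, limma adjusted p = 0.767). Gzma, a cytotoxic granule protease, was at 23.4 ± 8.86 and 34.4 ± 13.7 FPKM (adjusted p = 0.944).

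The transcription factors and cytokine receptors of NK cells included 0 of 21 genes at an unadjusted p under 0.05, with a median log2 fold change of -0.15. Eomes, which directs NK cell maturation, was at 3.19 ± 0.830 FPKM in KO and 3.42 ± 0.852 in WT. Among 9 genes of NK cell maturation, Cx3cr1, a chemokine receptor also present on monocytes, was higher in KO at an unadjusted p under 0.05, with 12.3 ± 3.46 against 8.43 ± 1.03 FPKM (limma adjusted p = 0.753). The adaptors and proximal signalling genes included 0 of 19 at this threshold, with a median of -0.08. Tyrobp, which couples Klra8 and Klra4 to Syk, was at 197 ± 32.1 FPKM in KO and 204 ± 26.1 in WT, and Hcst, which couples NKG2D, was at 22.9 ± 6.49 and 23.3 ± 7.51 FPKM. Syk was at 47.4 ± 9.56 and 55.9 ± 7.94 FPKM. These adaptors also serve myeloid cells and T cells, so their levels in whole spleen are not those of NK cells alone.

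Among the ligands, 2 of 16 genes tested were lower in KO at an unadjusted p under 0.05, with a median log2 fold change of -0.18. These were the MHC class Ib genes H2-Q7, at 35.6 ± 8.41 against 48.7 ± 6.85 FPKM (limma adjusted p = 0.753), and H2-Q6, at 103.0 ± 22.6 against 143.1 ± 29.0 FPKM (adjusted p = 0.789). They are close copies, and reads between them may be split. H2-T23, which encodes the ligand of the CD94 receptors, was at 104.1 ± 11.9 FPKM in KO and 117.1 ± 13.5 in WT (adjusted p = 0.953).

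The region from Klrb1a to Klra2 spans 2.64 Mb (chr6:128609227-131247362) and holds 24 of the 26 receptor genes. Of 31 other genes tested there, the Klra pseudogenes aside, 0 were lower and 1 was higher in KO at an unadjusted p under 0.05, and the median log2 fold change was -0.06. The gene that was higher was Gm27514, a predicted microRNA gene that was listed at 0 in every WT library and in 2 of 5 KO libraries. Of 12 other lectin-like genes of the region that were tested, 0 passed this threshold. The lowest p among them was that of Clec1b, a receptor of platelets and myeloid cells, at 3.94 ± 0.788 FPKM in KO and 5.01 ± 0.788 in WT (limma adjusted p = 0.903).

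**Figure D4:**
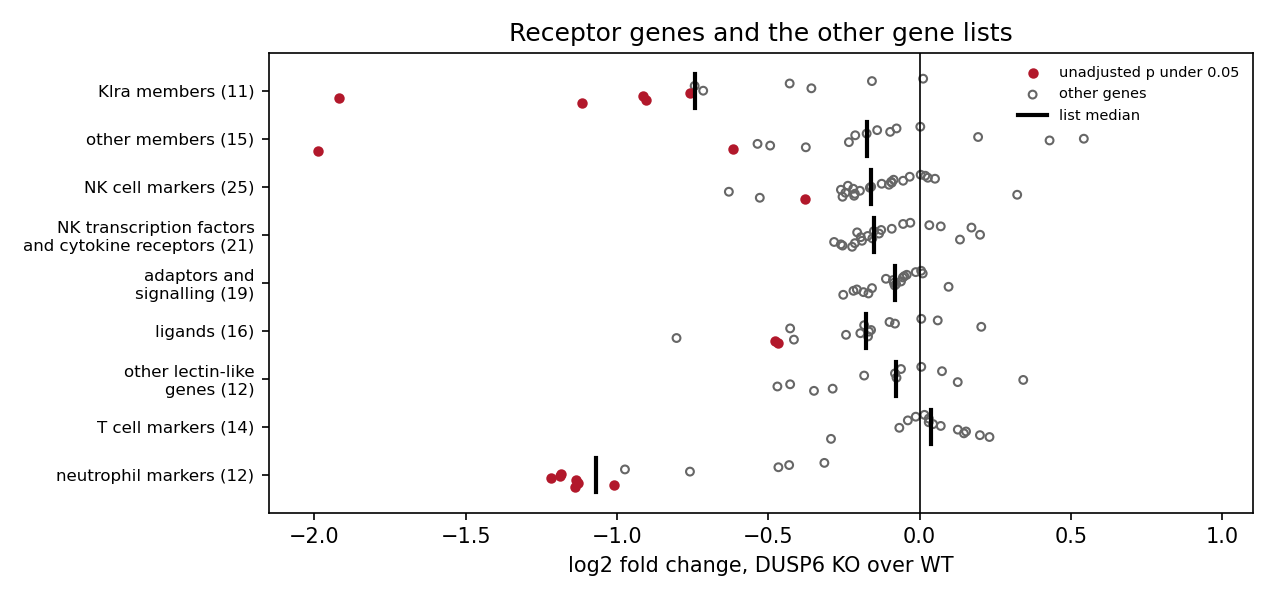
Log2 fold change (x axis, DUSP6 KO over WT) of each tested gene in 9 lists (y axis, number of genes in brackets), with black bars at the list medians and filled points for an unadjusted p under 0.05. The Klra genes have a median of -0.74 and the neutrophil markers one of -1.07, while the other lists have medians between -0.18 and 0.04.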

How the data were processed

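Spleen RNA of 5 DUSP6 KO and 5 WT mice was sequenced from poly(A)-selected libraries as paired-end reads, and replicates are named by the animal number in the labels. After alignment with Hisat2 and counting with featureCounts 1.5.0-p3, the authors deposited FPKM values and gene lengths. The submitters' processing notes name a human build, but the gene identifiers are of mouse, and all 26 receptor genes had the position given in GENCODE release 21 (GRCm38). Whether counting used the strand is not given in the sources used here, so overlapping genes are uncertain. Whole reads were recovered from FPKM and gene length, and gave 14990474 to 19822673 reads assigned to genes per library. The number of reads sequenced cannot be recovered in this way.

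The 21296 genes whose mean reached 0.1 FPKM, all 26 receptor genes among them, were compared on the scale log2(FPKM + 0.1) by the moderated test of limma 3.58.1 (R 4.3.3) with a mean-variance trend, Benjamini-Hochberg adjustment over all of them and a threshold of 0.05. The added 0.1 makes fold changes of weakly expressed genes too small. The count test of the authors was not repeated. Lists are described by counts and medians. The receptor genes and the lists were chosen with earlier results of these data known. Among the 26 receptor genes, values are given for each library where the unadjusted p was under 0.05, where the groups did not overlap, and for the 5 genes with the highest mean. Pseudogenes and up to 4 genes of each list are given by fold change, range or group mean and SD. Klra9, Klra3 and the ratios between genes were added after values were seen, and the Klra share of the summed level was not fixed beforehand. The other marker lists gave 0 of 14 T cell, 0 of 9 B cell, 0 of 9 erythroid and 0 of 6 innate lymphoid and NKT genes at an unadjusted p under 0.05, and 1 of 9 red pulp macrophage and 1 of 7 dendritic cell genes, both higher in KO. Transcript windows of 100 bases were taken from GENCODE and promoters from RefSeq (GRCm38.p6), and promoters were aligned with Biopython 1.88. Protein sequences were not analysed here. Alternatives were other pseudocounts (1 and 0.01), no low-value filter or one at 1 FPKM, a test with no trend or a robust one, array weights, centring on the median, quantile normalization, FPKM rescaled after removing antigen receptor, globin and mitochondrial genes, voom on recovered reads, an NK marker covariate, summed Klra rows, and leaving out libraries.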

Additional observations from a re-analysis of the deposited data

Results flagged for a closer look

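Of 108 groups of 5 libraries examined, 5 held a library whose gap to the nearest other, divided by the group's range, was above 0.71, where chance gives about 1 in 20 groups. Klra6 in WT 67 was at 3.24 FPKM, against 1.21 in the next library (ratio 0.81). Klri1 and Klrb1f were highest in KO 21, at 13.3 FPKM against 8.06 (ratio 0.819) and at 2.79 against 1.51 (ratio 0.902). Klrb1a was highest in KO 26, at 1.51 FPKM against 0.869 (ratio 0.739). The ratio of Klra8 to Ncr1 was lowest in KO 73, at 0.602 against 0.908 (gap ratio 0.803). Klra8 had 35 reads in KO 73, the fewest of the 10 libraries.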

How the results depend on the processing

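No paired analysis was possible because the groups share only 1 replicate number (73), and nothing in the labels ties these animals. None of the 26 genes was called in any of the 24 alternatives. Klra8, Klra4, Klrc3 and Klra10 had an unadjusted p under 0.05 in each alternative in which their rows were tested, with log2 fold changes of -1.23 to -0.75, -1.05 to -0.66, -2.44 to -0.82 and -2.85 to -0.70. Their adjusted p ranged from 0.176 to 0.680, 0.184 to 0.718, 0.0610 to 0.523 and 0.217 to 0.843. The number of genes lower at an unadjusted p under 0.05 was 7 as reported, 3 with a minimum mean FPKM of 1 (4 of the 7 genes were then not tested) and 3 with Klra rows summed, where the sum counts as 1. It was 4 to 12 with 1 library left out, the cause of which was not tested. Genes near 0 changed sign. With the NK marker covariate, log2 fold changes were 0.14 for Eomes, 0.27 for Hcst, 0.078 for Klra3, 0.085 for Klrb1a, 0.073 for Klrb1c, 0.035 for Klrb1f, 0.014 for Klrc1, 0.041 for Klrd1, 0.074 for Ncr1 and 0.063 for Tyrobp. Without WT 67 and KO 73, chosen after seeing the data, they were 0.026 for Eomes, 0.23 for Hcst, 0.13 for Klra3, 0.030 for Klrb1a, 0.069 for Klrb1c, 0.040 for Klrb1f, 0.021 for Klrc1 and 0.034 for Klrd1. Hcst was at 0.0052 with median centring, Tyrobp at 0.024 with quantile normalization, Klra2 at -0.085 with array weights, and Klrb1b at -0.0074 with a pseudocount of 1 and -0.024 with voom. With 1 library left out, the ranges that crossed 0 were -0.25 to 0.023 for Eomes, -0.19 to 0.12 for Hcst, -0.14 to 0.13 for Klra2, -0.35 to 0.042 for Klra3, -0.72 to 0.0015 for Klra5, -0.15 to 0.18 for Klrb1b, -0.17 to 0.019 for Klrd1 and -0.14 to 0.048 for Tyrobp. Depth limits Klrc3, Klra10, Klra5, Klrb1 and Klrg2, which had at most 26 reads in a library. The intervals given are for the difference between the group means of these mice.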
